A study of Mus musculus with 27 samples.

Results

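Livers of old mice that had been calorie-restricted and were then moved to a medium-fat diet (CR-MF) were compared with livers of mice kept on the control diet throughout (C). The comparison takes every array whose label gives the switch from restriction to medium fat (7 arrays) and every array whose label gives the AIN-93W control diet (8 arrays), 15 of the 27 arrays of the series. All mice were male C57BL/6J mice aged 28 months, each measured on 1 liver array, and diets began at 9 weeks of age. C mice ate the control diet ad libitum. CR-MF mice received a 30% calorie restriction until 24 months of age and then the medium-fat diet for 4 months. Their intake was raised gradually over the first weeks of this period, and the diet was then given ad libitum. Both diets were thus offered ad libitum in the last months, but the groups differ in the earlier restriction and in the fat content of the present diet, and these cannot be told apart in this contrast. For orientation, values are also given for 5 mice on continued 30% calorie restriction (CR) and 7 mice on the medium-fat diet throughout (MF). Mice were housed individually, fasted for 4 h, given carboxymethyl cellulose by gavage and fasted for 6 h more before sacrifice. A whole liver piece holds all the liver's cell types, so that fewer cells of a type and less RNA per cell cannot be told apart.

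In mice, the pituitary releases growth hormone in pulses in males and more evenly in females, and the liver reads this pattern through the growth hormone receptor and the transcription factor STAT5b. The pulses sustain a male-biased set of liver genes for steroid metabolism, organic anion uptake and urinary pheromone carriers, while the even pattern sustains a female-biased set that includes several cytochrome P450 enzymes and the fatty acid transporter Cd36. Cytochrome P450 enzymes and conjugating enzymes oxidise and then tag steroids, drugs and bile acids, and are among the liver genes that vary most with sex, diet and age.

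Median log2 intensity lay between 5.38 and 5.48 on the 27 arrays, and the arrays correlated with each other at 0.975 to 0.991. By the codes in the array names, plate G150 held 6 C and 5 CR-MF arrays, and plates G151 and G152 held 1 of each group. All 8 C arrays lay in well row F and all 7 CR-MF arrays in well row H, so that diet group and well row cannot be told apart. Markers of hepatocytes, such as albumin and fibrinogen genes, averaged between 12.7 and 12.9 on every C and CR-MF array. Markers of pancreatic acinar cells averaged between 3.77 and 4.09, under the filter's log2 intensity of 4.32 on all 15 arrays.

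Of 13993 genes tested, 19 rose and 23 fell in CR-MF livers at a Benjamini-Hochberg adjusted p of 0.05 in limma, which is 0.136% and 0.164% of the genes and 0.3% together. At an unadjusted p of 0.01, 241 genes (1.72%) lay higher and 251 (1.79%) lower, 492 together. By itself this threshold gives about 139.93 in both directions together over as many genes. After quantile normalization 342 genes lay higher and 218 lower at this threshold. The values of the 2 groups did not overlap for 40 genes (0.286%), and 17 of these were among the 42 called genes. The 19 rises ranged from 1.17-fold to 18.9-fold with a median of 1.62-fold, and the 23 falls from 1.19-fold to 5.27-fold with a median of 1.5-fold. Among genes above the filter's intensity on every C and CR-MF array, the rises were led by Susd4, Ttc39c and Osgin1 and the falls by Cyp2b9, Slc22a27, Rcan2 and Cyp2c39. Hsd3b5, Obp2a and the RIKEN transcript B430212C06Rik had large differences too, but lay below that intensity on 4 of 8 C arrays, on 8 of 8 C arrays and on 5 of 7 CR-MF arrays, so that their exact size is uncertain.

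**Figure D1:**
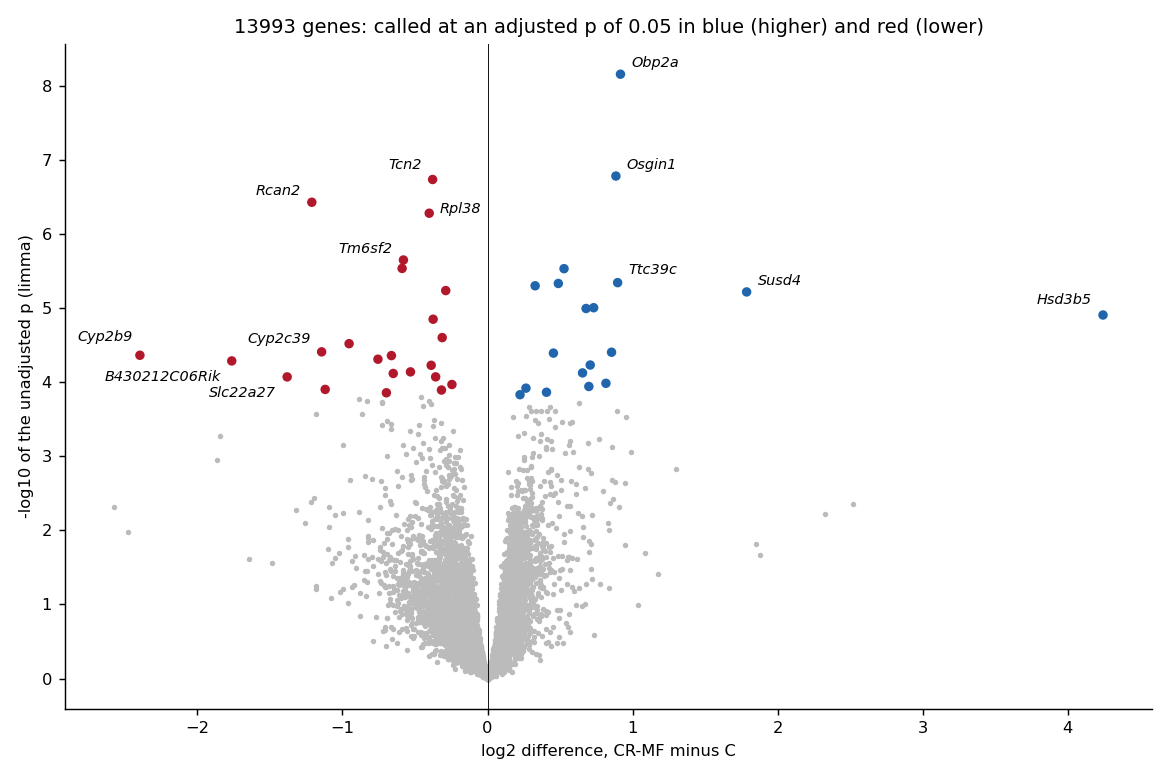
Log2 difference between CR-MF and C (x axis) and -log10 of the unadjusted p in limma (y axis) for the 13993 genes tested, each point 1 gene. The 19 called rises are blue and the 23 called falls red, with Hsd3b5 farthest to the right at 4.24 and Cyp2b9 farthest to the left of the called genes at -2.40.

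With plate as a block 37 genes were called (16 higher, 21 lower), 36 of them among the 42. Within plate G150 alone 54 genes were called (18 higher, 36 lower), of which 19 were among the 42, and all 42 kept their direction there with adjusted p of at most 0.109. On the single pair of arrays of plate G151, 39 of the 42 kept their direction, and on that of G152 41 did. Fitting the C and CR-MF arrays alone gave 49 calls, 30 of them among the 42, and the call of Cyp2b9 was among those lost (adjusted p = 0.1). The count lay between 21 and 111 with any 1 mouse left out. It was 24, 24 and 27 without the C mice A4_3, A4_19 and A4_1. It was 25, 23, 27 and 21 without the CR-MF mice BC4_1, BC4_5, BC4_9 and BC4_13, and 111 without BC4_11. For 17 of the 42 genes no single mouse ended the call, and these are Obp2a, Osgin1, Tcn2, Rcan2, Rpl38, Dnaja4, Uqcr11, Tm6sf2, U2af1, Ttc39c, Col25a1, Babam2, Susd4, Lama3, Capn8, Hsd3b5 and Mpdu1.

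Steroid and xenobiotic enzymes held the largest changes in either direction. Hsd3b5, a steroid-metabolising enzyme of the male mouse liver, was 18.9-fold higher in CR-MF, and Cyp2b9, a cytochrome P450 that is female-predominant in young mouse liver, was 5.27-fold lower. The 250 bases before their annotated starts are shown in lower case because these genes carry the largest called rise and the largest called fall. They are taken from RefSeq (GRCm38.p6), Hsd3b5 from the minus strand at chr3:98645535-98645784 and Cyp2b9 from the plus strand at chr7:26173159-26173408.
Hsd3b5: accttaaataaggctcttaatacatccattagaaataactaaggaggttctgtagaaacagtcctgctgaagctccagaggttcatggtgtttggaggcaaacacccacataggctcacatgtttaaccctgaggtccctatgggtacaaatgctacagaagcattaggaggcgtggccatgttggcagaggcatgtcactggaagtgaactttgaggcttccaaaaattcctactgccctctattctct
Cyp2b9: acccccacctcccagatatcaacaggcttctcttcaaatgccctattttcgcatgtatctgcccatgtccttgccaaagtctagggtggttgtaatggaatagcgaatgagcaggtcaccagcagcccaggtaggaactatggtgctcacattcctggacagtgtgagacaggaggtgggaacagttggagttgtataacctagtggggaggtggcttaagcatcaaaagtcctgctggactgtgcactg
Neither stretch holds the letters TTCNNNGAA, the palindrome that STAT5 proteins bind, searched on both strands, where a match to the one strand is also a match to the other. Among 32851 windows of this length, 7.02% hold it. Of the 42 called genes, 33 had a window, and Tenm3 alone of these holds the letters. This counts genes while the share above counts windows, so the values are not compared.

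In C livers Hsd3b5 ranged from 3.40 to 7.73 with a median of 4.88 (mean 5.05 ± 1.52, SD, n = 8), and in CR-MF livers from 7.33 to 10.51 with a median of 9.83 (mean 9.29 ± 1.34, n = 7). In the plot of levels by mouse, the lowest CR-MF mice overlapped only the highest C mouse, and the 7 MF mice lay low. The difference was 4.24 (standard error 0.79, 95% interval 2.61 to 5.87, adjusted p = 0.0108 in limma). On 4 of the 8 C arrays the signal was below the filter's intensity of 20, where log2 values compress, and 5 of the 7 CR-MF mice exceeded every C mouse. Susd4, which encodes a membrane protein that inhibits complement, ranged from 6.60 to 8.78 (median 7.51) in C and from 8.64 to 10.03 (median 9.23) in CR-MF. It rose by 1.79 (standard error 0.32, adjusted p = 0.00652), with 6 of 7 CR-MF mice above every C mouse.

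**Figure D2:**
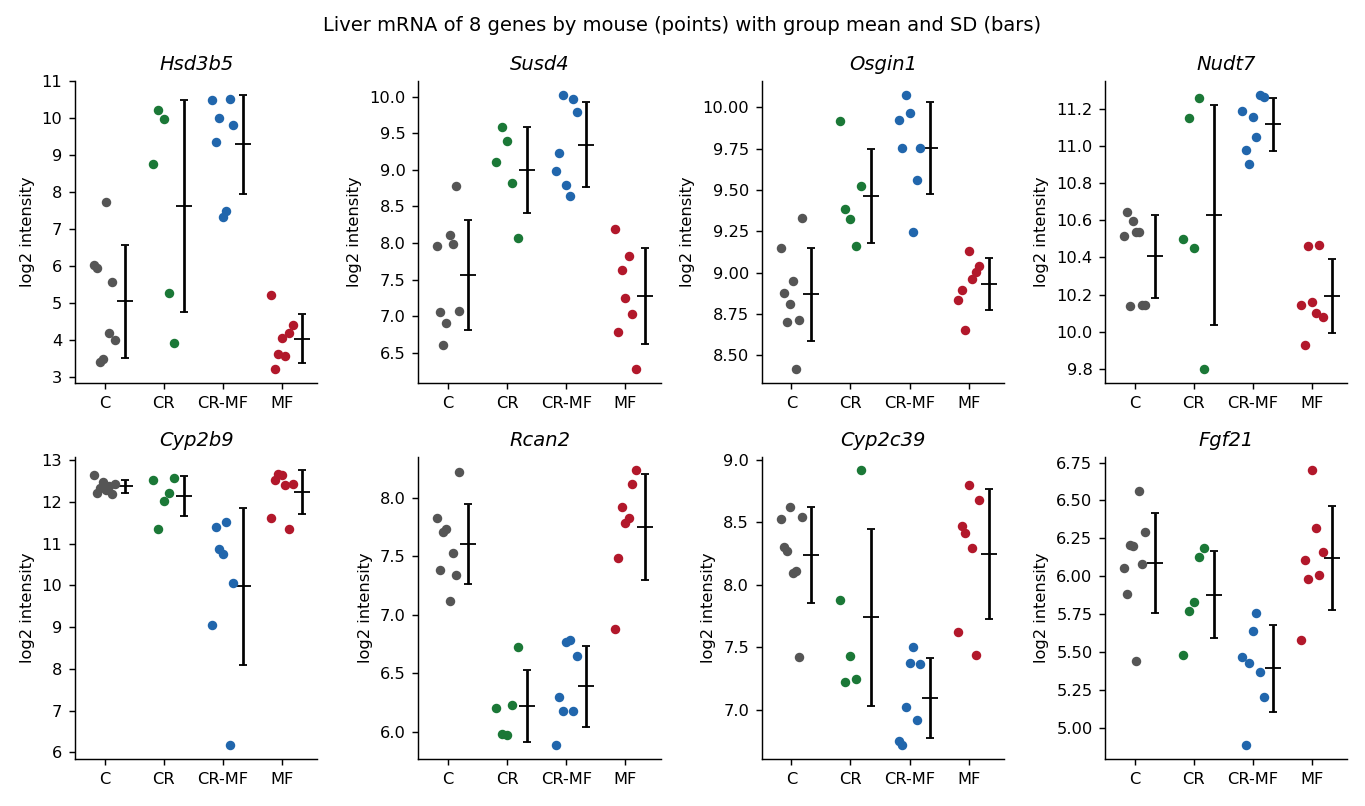
Log2 intensity (y axis) of 8 genes in each mouse (points) of the groups C, CR, CR-MF and MF (x axis), with the group mean and SD beside them. Hsd3b5, Susd4, Osgin1 and Nudt7 lie higher in CR-MF than in C, while Cyp2b9, Rcan2, Cyp2c39 and Fgf21 lie lower, and only for Nudt7, Cyp2b9 and Rcan2 are the 2 groups fully apart.

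Male-biased genes lay higher in CR-MF livers. Of 30 listed male-biased genes 26 were tested, 5 rose (Hsd3b5, Susd4, Selenbp2, Nudt7 and Gstp1) and 0 fell, against 0.136% and 0.164% of all genes. With an unadjusted p under 0.01, 13 were higher and 0 lower, against 1.72% and 1.79% of all genes. The median difference of the 26 was 0.71, against 0.00442 over all genes tested. Of the 26, 24 were positive, where 51.4% of all genes were. The mean level over the listed genes ran from 8.15 to 9.11 in the C mice and from 9.36 to 10 in the CR-MF mice, so that no mouse of one group lay among the other. Hsd3b5, Susd4, Nudt7 and Cyp2u1 were already known to differ among these livers when the list was taken up. The mean level holds these genes too, and its ranges were not computed without them. Without them, 22 members had a median of 0.60, with 20 of 22 positive, 2 called higher and 9 at an unadjusted p of 0.01.

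Nudt7, a peroxisomal enzyme that breaks down coenzyme A, did not overlap between the groups, with 10.14 to 10.65 (median 10.53) in C and 10.90 to 11.27 (median 11.15) in CR-MF. It rose by 0.71 (standard error 0.15, adjusted p = 0.0296). Gstp1, a glutathione S-transferase of the pi class, ranged from 11.42 to 12.05 (median 11.80) in C and from 11.93 to 12.80 (median 12.39) in CR-MF, a rise of 0.65 (standard error 0.14, adjusted p = 0.0344). Selenbp2, a selenium-binding protein, ranged from 7.64 to 8.28 (median 8.06) in C and from 8.25 to 9.75 (median 8.85) in CR-MF. It rose by 0.86 (standard error 0.17, adjusted p = 0.0255). Within plate G150 the adjusted p was 0.0835 for Nudt7, 0.0404 for Gstp1 and 0.0637 for Selenbp2, and single mice ended each of these 3 calls. That of Selenbp2 ended without BC4_5 or BC4_13 (adjusted p up to 0.0749). Leaving out any of A4_5, A4_9, A4_17, BC4_1, BC4_5, BC4_9 or BC4_15 ended that of Nudt7 (up to 0.0765). The call of Gstp1 ended without A4_1, A4_3, A4_9, A4_17, BC4_1, BC4_5, BC4_9, BC4_13 or BC4_15 (up to 0.0945).

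Other male-biased genes did not pass the adjusted threshold. Hsd17b2, which oxidises oestradiol and testosterone, differed by 0.51 (adjusted p = 0.0685), Cyp2d9, a male-specific testosterone hydroxylase, by 0.77 (adjusted p = 0.0891), and Cyp7b1, an oxysterol hydroxylase, by 0.87 (adjusted p = 0.215). Slco1a1, an uptake carrier for bile acids and steroid conjugates, ranged from 4.33 to 9.96 (median 8.66) in C and from 9.24 to 10.74 (median 10.42) in CR-MF. Its difference was 2.52 (standard error 0.81, adjusted p = 0.234), with an SD of 1.97 in C and 0.53 in CR-MF. The fatty acid hydroxylases Cyp4a12a and Cyp4a12b differed by 1.88 and 1.85 (adjusted p = 0.353 and 0.321). They are close paralogs, so that probes may share signal.

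Major urinary protein genes, which encode the pheromone carriers of mouse urine, form a cluster of near-identical copies, and 5 of the 21 listed had a cluster with a single symbol and were tested. None was called, but 3 lay higher under an unadjusted p of 0.01 (1.72% of all genes) and 5 of 5 were positive, with a median of 0.40. Mup21 ranged from 5.66 to 7.31 (median 7.09) in C and from 7.55 to 8.27 (median 7.77) in CR-MF, without overlap, and differed by 0.96 (standard error 0.23, adjusted p = 0.0651). Mup5 differed by 0.40 (adjusted p = 0.101) and Mup3 by 0.25 (adjusted p = 0.245). Since copies share sequence, the values may hold signal of untested members.

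Female-biased genes lay lower. Of 31 listed genes 24 were tested, 1 fell (Cyp2b9) and 0 rose, against 0.164% and 0.136% of all genes. At an unadjusted p of 0.01 7 were lower and 1 higher, against 1.79% and 1.72% of all genes. The median difference was -0.53, and 22 of 24 were negative. The mean level over the members ran from 7.41 to 8.09 in C and from 6.81 to 7.44 in CR-MF, where the ranges overlapped by a small margin. Cyp2b9 and Cyp17a1 were known from earlier results of these arrays and are part of this mean level. The other 22 members had a median of -0.45, with 20 negative and 5 below C at an unadjusted p of 0.01.

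Cyp2b9 was uniformly high in the old males on the control diet, between 12.20 and 12.65 (median 12.36, mean 12.37 ± 0.15, n = 8). In CR-MF it ranged from 6.17 in BC4_5 to 11.52 in BC4_3 (median 10.74, mean 9.97 ± 1.88, n = 7), and all 7 CR-MF mice lay below every C mouse. The difference was -2.40 with a standard error of 0.49 and a 95% interval from -3.40 to -1.39 (adjusted p = 0.0255 in limma). Leaving out A4_1, A4_3, A4_19 or BC4_1 ended the call, with adjusted p up to 0.073, and so did fitting the C and CR-MF arrays alone (adjusted p = 0.1). Within plate G150 the difference was -2.94 (adjusted p = 0.0404). The paralog Cyp2b13, whose probes may share signal with Cyp2b9, differed by -2.48 with a standard error of 0.90 (adjusted p = 0.29). Sult3a1, a sulphotransferase typical of female liver, ranged from 3.27 to 8.97 (median 5.49) in C, while all 7 CR-MF mice lay below the filter's intensity of 20 (2.91 to 3.47). Its difference did not pass (adjusted p = 0.242). Cyp3a44 differed by -0.89 (adjusted p = 0.0534), Fmo2, a flavin-containing monooxygenase, by -0.997 (adjusted p = 0.099) and Cyp17a1, a steroid hydroxylase and lyase, by -0.95 (adjusted p = 0.16).

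**Figure D3:**
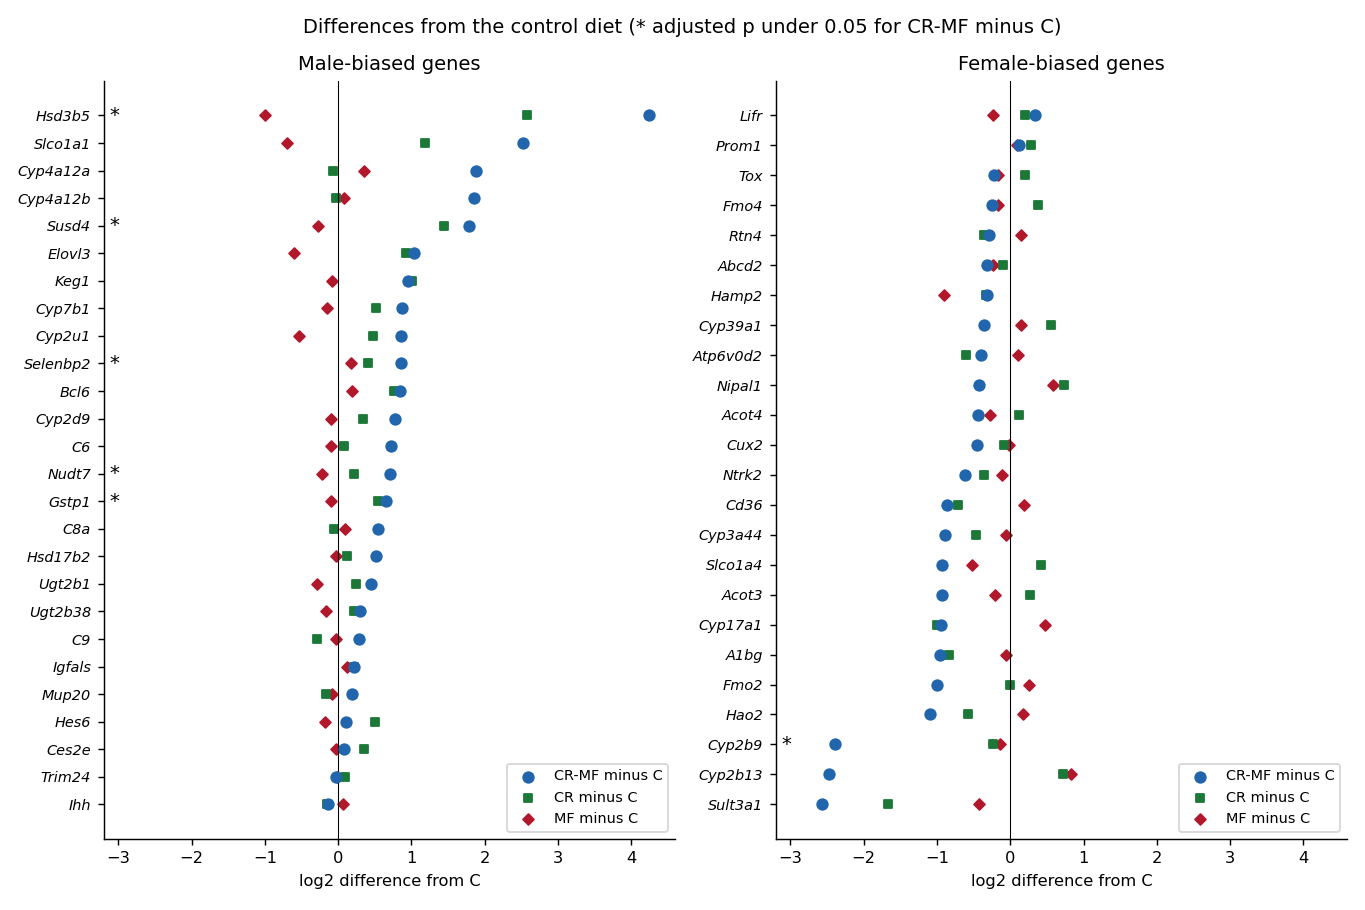
Log2 difference from C (x axis) of the 26 tested male-biased genes (left) and 24 tested female-biased genes (right) for CR-MF (blue circles), CR (green squares) and MF (red diamonds), which share the C arrays. Most blue circles lie to the right of 0 in the left panel (24 of 26) and to its left in the right panel (22 of 24), and asterisks mark the 5 male-biased genes and the 1 female-biased gene called between CR-MF and C.

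The growth hormone receptor, STAT5 and IGF genes themselves differed little. Of 20 tested members 0 were called, 10 were positive and 10 negative, and the median was 0.0101. Ghr, the growth hormone receptor, was the single member at an unadjusted p of 0.01, where 1.72% of all genes lay higher. It ranged from 11.35 to 11.63 (median 11.50) in C and from 11.58 to 11.74 (median 11.66) in CR-MF and differed by 0.16 (standard error 0.055, adjusted p = 0.27).

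Cytochrome P450 genes of families 1 to 3 lay on both sides. Of 34 tested, 0 rose and 2 fell, and at an unadjusted p of 0.01 5 lay higher and 6 lower, against 0.136% and 0.164% of all genes called and 1.72% and 1.79% at the looser threshold. Cyp2c39, which hydroxylates retinoic acid, ranged from 7.42 to 8.63 (median 8.29) in C and from 6.72 to 7.51 (median 7.02) in CR-MF. The log2 difference was -1.14 with a standard error of 0.23 (adjusted p = 0.0255), and 6 of 7 CR-MF mice lay below every C mouse. The call ended without A4_1, A4_19, BC4_1, BC4_5 or BC4_13 (up to 0.071) and within plate G150 (0.0883). Cyp2c38 differed by -0.73 (adjusted p = 0.0698) and Cyp2a22 by -1.84 (adjusted p = 0.0869). Cyp3a11, the main steroid and drug hydroxylase of its family, differed by -0.53 (adjusted p = 0.16). Members of these subfamilies are similar in sequence, so that probes may share signal.

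Conjugating enzymes also split. Among 29 tested phase II genes Gstp1 rose and Gstm2 fell, and under an unadjusted p of 0.01 there were 5 higher and 1 lower genes (of all genes 0.136% rose and 0.164% fell, and 1.72% and 1.79% passed the looser threshold). Gstm2, a glutathione S-transferase of the mu class, ranged from 9.51 to 10.46 (median 9.98) in C and from 8.98 to 9.60 (median 9.24) in CR-MF. It fell by 0.66 in log2 units, with a standard error of 0.14 (adjusted p = 0.0255). The call was lost without A4_3, A4_9, A4_19 or BC4_13 (up to 0.0732) and within plate G150 (0.104). Sult5a1, a sulphotransferase, did not overlap between the groups, with 5.66 to 6.62 (median 6.27) in C and 6.79 to 7.94 (median 7.05) in CR-MF, yet its difference of 0.99 had an adjusted p of 0.108.

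Osgin1, the oxidative stress-induced growth inhibitor, had the second smallest p. It ranged from 8.42 to 9.33 (median 8.84) in C and from 9.25 to 10.08 (median 9.75) in CR-MF, with 6 of 7 CR-MF mice above every C mouse. The rise was 0.89 (standard error 0.13, adjusted p = 0.000858). Its upstream stretch and that of Gstp1 are the only ones among the 33 called genes with a window that hold TGANTCAGC, letters bound by NRF2 and its Maf partners, on either strand, against 1.02% of all 32851 windows. They are shown with the match in capitals, Osgin1 from the plus strand at chr8:119436897-119437146 and Gstp1 from the minus strand at chr19:4037913-4038162 (GRCm38.p6, RefSeq).
Osgin1: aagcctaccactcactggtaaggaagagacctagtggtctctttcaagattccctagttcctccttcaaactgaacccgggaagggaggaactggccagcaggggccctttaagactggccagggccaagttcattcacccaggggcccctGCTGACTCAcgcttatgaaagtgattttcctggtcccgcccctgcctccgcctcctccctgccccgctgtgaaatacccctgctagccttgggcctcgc
Gstp1: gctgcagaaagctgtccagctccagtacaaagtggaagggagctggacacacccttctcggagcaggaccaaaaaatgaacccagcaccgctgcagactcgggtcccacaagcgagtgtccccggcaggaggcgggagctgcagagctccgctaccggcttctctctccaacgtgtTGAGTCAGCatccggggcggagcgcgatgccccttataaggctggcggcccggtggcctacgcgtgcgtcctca
Counted from the start, the match lies at -99 to -91 in Osgin1, where it reads on the opposite strand, and at -74 to -66 in Gstp1. A match describes the letters and is no evidence of binding. Called genes were counted as genes and the background as windows, so no enrichment is read from these shares. Of 26 tested NRF2 targets and antioxidant enzymes, to which neither gene was assigned, 0 were called, 0 reached an unadjusted p of 0.01 in either direction, and the median difference was 0.0176.

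Obp2a, a lipocalin of the odorant-binding family, had the smallest p of all genes (adjusted p = 9.77e-05). All 8 C mice lay between 3.80 and 4.02, below the filter's intensity of 20, and the 7 CR-MF mice between 4.52 and 5.50. The gene was thus at least 1.39-fold higher in CR-MF, taking C at the filter's floor, and its level remained low in both groups. Ttc39c, a tetratricopeptide repeat protein, did not overlap between the groups (10.27 to 11.02, median 10.34, against 11.06 to 11.66, median 11.30) and rose by 0.90 (standard error 0.16, adjusted p = 0.00637, in G150 alone 0.0518). Dnaja4, a co-chaperone of heat shock proteins, did not overlap either. It ranged from 5.15 to 5.66 (median 5.49) in C and from 5.68 to 6.203 (median 6.06) in CR-MF, and rose by 0.53 (adjusted p = 0.00514). Lama3, a laminin chain of basement membranes, rose by 0.73 (adjusted p = 0.00946), Capn8, a calpain protease, by 0.68 (adjusted p = 0.00946) and Col25a1, a transmembrane collagen, by 0.49 (adjusted p = 0.00637).

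C4a rose by 0.70 (standard error 0.15, adjusted p = 0.0444), from 8.04 to 8.74 (median 8.49) in C to 8.62 to 9.66 (median 9.11) in CR-MF. It encodes a complement C4 relative known in mice as sex-limited protein, and since it is near-identical to C4b its probes may hold signal of both. Its call ended with plate as a block (adjusted p = 0.0522) and without 12 of the 15 mice taken singly, all but A4_21, BC4_3 and BC4_11 (adjusted p up to 0.119). Of 26 tested complement and coagulation factors, a list that does not hold C4a, 0 were called, 5 members lay higher and 0 lower with unadjusted p under 0.01 (1.72% and 1.79% of all genes), and 22 were positive with a median of 0.113. C8a, a component of the membrane attack complex, differed by 0.55 (adjusted p = 0.242), C2 by 0.36 (adjusted p = 0.174) and Proc, which encodes the anticoagulant protein C, by 0.20 (adjusted p = 0.16). The other rises were small and belonged to Mrps21 of the mitochondrial ribosome (0.45), Crcp (0.41), the splicing factor U2af1 (0.33), the peptide-trimming aminopeptidase Erap1 (0.26), the chromatin subunit Actl6a (0.22) and the predicted gene Gm4956 (0.82).

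Among the falls, Rcan2, a regulator of the phosphatase calcineurin, was apart in every mouse. It ranged from 7.12 to 8.22 (median 7.61) in C and from 5.89 to 6.79 (median 6.30) in CR-MF, and fell by 1.21 in log2 units, with a standard error of 0.18 (adjusted p = 0.00131). Slc22a27, an organic anion transporter, ranged from 7.42 to 9.03 (median 8.13) in C and from 5.98 to 7.62 (median 6.71) in CR-MF. It fell by 1.38 with a standard error of 0.30 (adjusted p = 0.036), and 9 of the 15 mice, when left out, ended the call (A4_1, A4_3, A4_9, A4_17, A4_19, BC4_1, BC4_5, BC4_9 and BC4_13, adjusted p up to 0.0932). Nt5e, the ectonucleotidase CD73 that makes adenosine, did not overlap between the groups, at 7.61 to 9.08 (median 8.31) against 6.93 to 7.50 (median 7.14). The fall was 1.12 on the log2 scale (adjusted p = 0.0458), with adjusted p = 0.056 under a plate block, 0.0844 in G150 alone and up to 0.105 without 1 mouse, where each mouse except A4_13, A4_21, BC4_3 and BC4_11 ended the call.

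Fgf21, a fasting hormone that the liver releases under the fatty acid sensor PPARalpha, ranged from 5.44 to 6.56 (median 6.14) in C and from 4.88 to 5.76 (median 5.43) in CR-MF. It fell by 0.70 in log2 units with a standard error of 0.16 (adjusted p = 0.0475), with 4 of 7 CR-MF mice below every C mouse, and each of 11 mice left out singly ended the call (all but A4_13, A4_21, BC4_3 and BC4_15, adjusted p up to 0.112), as did 6 of 12 other settings, among them quantile normalization, median centring and plate G150 alone (0.091). It was the single gene called among 28 tested PPARalpha targets and fatty acid oxidation genes, against 0.164% of all genes called lower. Of the 28, 24 were negative with a median of -0.166, while 51.4% of all genes were positive. Tm6sf2, a protein of the endoplasmic reticulum that is needed to load lipid onto very-low-density lipoprotein, ranged from 10.67 to 11.37 (mean 10.98) in C and from 10.05 to 10.69 (mean 10.40) in CR-MF. It fell by 0.58 (standard error 0.097, adjusted p = 0.00514), and within plate G150 the adjusted p was 0.066.

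A pair of abundant mRNAs of small proteins were apart in every mouse and lay in CR-MF below all 3 other groups. Uqcr11, a subunit of respiratory complex III, ranged from 11.08 to 11.75 (median 11.43) in C and from 10.53 to 11.03 (median 10.79) in CR-MF, while the CR and MF means were 11.47 and 11.31. Rpl38, a ribosomal protein whose copies in the genome may share probes, ranged from 11.56 to 11.75 (median 11.68) in C and from 10.99 to 11.49 (median 11.29) in CR-MF, with CR and MF means of 11.62 and 11.63. They fell by 0.59 and 0.40 on the log2 scale (adjusted p = 0.00514 and 0.00147, within plate G150 0.0505 and 0.0404). Uqcr11 was the single gene called among 37 tested subunits of complexes II to V, against 0.164% of all genes called lower. The median difference of these subunits was -0.0199. Among 35 subunits of complex I 0 were called, with a median of 0.0412. The part of the well row in values that set CR-MF apart from all other groups was not tested.

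Tcn2, which carries vitamin B12 in plasma, did not overlap between the groups, at 11.69 to 11.92 (median 11.78) against 11.26 to 11.54 (median 11.43), and fell by 0.38 in log2 units with a standard error of 0.054 (adjusted p = 0.000858). The lysosomal peptidase Tpp1 did not overlap either, at 10.21 to 10.49 (median 10.37) against 9.93 to 10.16 (median 10.06), and fell by 0.31 (adjusted p = 0.0195, in G150 alone 0.0866). Mpdu1, needed to use dolichol-linked mannose in glycan assembly, fell by 0.38 (adjusted p = 0.0116) and the matrix proteoglycan Prelp by 0.36 (adjusted p = 0.036). The other falls belonged to the actin-binding Nebl (0.65), the splicing regulator Mbnl3 (0.76), the adhesion protein Tenm3 (0.53), Tax1bp3 (0.39), the phosphatase subunit Ppp1ca (0.32), Babam2 (0.29), the clathrin adaptor subunit Ap2a2 (0.25) and the RIKEN transcript 2010003K11Rik (0.95). B430212C06Rik fell too, but lay below the filter's intensity of 20 on 5 of the 7 CR-MF arrays, so that no size is given. With plate as a block the adjusted p of Prelp, Ppp1ca, Crcp and Actl6a became 0.0522, 0.0601, 0.0626 and 0.0522.

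Genes of lipid uptake and storage lay lower without passing the threshold. Of 30 tested lipid droplet, uptake and PPARgamma target genes 0 were called, 22 were negative, and 3 lay lower and 1 higher at an unadjusted p of 0.01 (1.79% and 1.72% of all genes). Vldlr, a receptor for triglyceride-rich lipoproteins, ranged from 5.79 to 6.40 (median 6.03) in C and from 4.83 to 5.91 (median 5.31) in CR-MF, a difference of -0.73 (standard error 0.17, adjusted p = 0.0544). Cd36 ranged from 10.49 to 11.42 (median 11.15) in C and from 9.41 to 10.83 (median 10.35) in CR-MF, a difference of -0.87 (standard error 0.21, adjusted p = 0.0625), and within plate G150 the difference was -1.23 (adjusted p = 0.027). Mogat1, which makes diacylglycerol, differed by -0.99 (adjusted p = 0.251), and Fabp4, a fatty acid-binding protein of fat cells and macrophages, by -0.32 (adjusted p = 0.804). Cav1, the caveolar coat protein, went the other way, with 5.75 to 6.37 (median 5.95) in C, 6.01 to 7.15 (median 6.55) in CR-MF and a difference of 0.49 (adjusted p = 0.23).

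Of 21 tested genes of fatty acid synthesis 0 were called and 16 were negative, with a median of -0.128, and Elovl6, a fatty acid elongase, differed by -0.68 (adjusted p = 0.227). Of 20 tested cholesterol synthesis genes 0 were called or reached an unadjusted p of 0.01, although 17 were positive with a median of 0.224, against 0.00442 over all genes. Insig1, which holds back sterol-regulatory proteins, differed by 0.66 (adjusted p = 0.302). Of 26 tested bile acid genes 0 were called, with 4 higher and 1 lower genes under an unadjusted p of 0.01 (1.72% and 1.79% of all genes). Cyp8b1, which directs synthesis to cholic acid, ranged from 9.12 to 10.43 (median 10.03) in C and from 10.38 to 11.21 (median 10.65) in CR-MF. Its difference was 0.80 (standard error 0.24, adjusted p = 0.183). Baat, which conjugates bile acids, differed by 0.30 (adjusted p = 0.138), and the efflux pump Abcc4 by -0.69 (adjusted p = 0.115).

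Lepr, the leptin receptor, ranged from 7.69 to 9.27 (median 8.07) in C and from 6.26 to 8.05 (median 6.85) in CR-MF, with 6 of 7 CR-MF mice below every C mouse, and differed by -1.18 (standard error 0.28, adjusted p = 0.0626). MF livers differed from C by the same amount, -1.18, while CR livers lay above C by 1.07. Fut8, which adds the core fucose to N-glycans, ranged from 6.08 to 6.46 (median 6.27) in C and from 5.54 to 6.29 (median 5.79) in CR-MF, a difference of -0.44 (standard error 0.11, adjusted p = 0.097). Among 31 tested genes of N-glycan synthesis and trimming 0 were called and 2 lay lower at an unadjusted p of 0.01 (1.79% of all genes), with a median of -0.0197. Of 27 tested chaperones and stress genes of the endoplasmic reticulum 0 were called and 21 were positive, led by Sdf2l1 (0.71, adjusted p = 0.147).

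Markers of several other cell types were lower in CR-MF than in C livers, without calls, and most of these lists were lower in CR livers too. Of 14 tested markers of recruited and lipid-associated macrophages 14 were negative, 3 at an unadjusted p of 0.01 (1.79% of all genes), and the median was -0.59. Their median difference from C was -1.05 in CR and -0.0926 in MF livers. Their mean level ran from 7.09 to 8.45 in C and from 6.55 to 8.17 in CR-MF. Trem2, a lipid receptor of these macrophages, ranged from 6.75 to 9.08 (median 7.99) in C and from 6.17 to 8.72 (median 6.43) in CR-MF. Its difference was -1.09 (standard error 0.36, adjusted p = 0.242). Within plate G150, which does not hold BC4_11, it was -1.51 (adjusted p = 0.0443). Gpnmb, a further marker, ranged from 5.79 to 9.76 (median 6.94) in C and from 5.25 to 6.65 (median 5.94) in CR-MF and differed by -1.22 (adjusted p = 0.23). Cd9, also found on other cells, differed by -0.63 (adjusted p = 0.143).

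Markers of resident Kupffer cells were negative for 14 of 16, with a median of -0.339, and 0 reached an unadjusted p of 0.01. Their median difference from C was -0.586 in CR and -0.329 in MF livers. The mean level of the Kupffer markers ran from 8.60 to 9.92 in C and from 8.49 to 9.45 in CR-MF. Markers of T and NK cells were negative for 14 of 16 (median -0.273) and those of B and plasma cells for 13 of 14 (median -0.212), with 0 at an unadjusted p of 0.01 in either list. Against C, the T and NK median was -0.607 in CR and -0.256 in MF, and that of B and plasma cells -0.571 and 0.0251. Markers of endothelial cells were negative for 14 of 17, of which 4 lay lower at an unadjusted p of 0.01 (1.79% of all genes). They included the sinusoidal scavenger receptor Stab1 (-0.26, adjusted p = 0.158), Oit3 (-0.37, adjusted p = 0.2) and the coreceptor Eng (-0.26, adjusted p = 0.246). The endothelial median was -0.202 in CR-MF, -0.00351 in CR and -0.0163 in MF livers, each against C. Neutrophil markers were negative for 7 of 12, with a median of -0.0342. Cell cycle genes were negative for 26 of 28, with a median of -0.339 and 0 at an unadjusted p of 0.01. Their median difference from C was -0.356 in CR and 0.0502 in MF livers. Ccnd1, cyclin D1, differed by -0.64 (adjusted p = 0.389).

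Hepatocyte markers, by comparison, were positive for 13 of 15 with a median of 0.0388. The part of cell composition in the called genes was not tested. Interferon response genes were positive for 24 of 30, with a median of 0.22 and 2 higher at an unadjusted p of 0.01 (1.72% of all genes), and Ifi27, an interferon-induced protein, differed by 0.61 (adjusted p = 0.165). Collagens and other matrix genes were negative for 30 of 35, with a median of -0.157. Markers of bile duct and progenitor cells were positive for 5 of 10 and negative for 5, with a median of -0.0367. Among them Sox9, a transcription factor of bile duct and progenitor cells, ranged from 6.37 to 7.25 (median 6.93) in C and from 7.02 to 7.93 (median 7.48) in CR-MF and differed by 0.56 (adjusted p = 0.099). Alas2, the erythroid enzyme of haem synthesis, did not overlap between the groups, at 7.44 to 8.63 (median 8.12) in C against 8.77 to 9.24 (median 9.02) in CR-MF, a difference of 0.89 (adjusted p = 0.0589). The other tested erythroid markers, Slc4a1 and Klf1, differed by -0.23 and 0.0156 (adjusted p = 0.862 and 0.976), and the median of the 3 was 0.0156.

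The called genes were then set beside the means of the CR and MF groups. Relative to C, the CR mean lay on the same side as the CR-MF mean for 18 of the 19 rises and 20 of the 23 falls, and the MF mean for 12 and 12. The CR-MF mean lay beyond both the CR and the MF mean for 17 rises and 17 falls. The genes were picked for a large difference of CR-MF from C, which by itself favours such positions. No share over all genes was counted for these positions, so they are descriptions only. At an adjusted p of 0.05, 6 of the 19 rises and 6 of the 23 falls were also called in the same direction between CR and C, where 0.765% of all genes were higher and 0.808% lower. Between MF and C 0 genes were called in limma, while 556 genes lay under an unadjusted p of 0.05, and 86 higher and 32 lower genes under 0.01 (smallest adjusted p 0.233). These contrasts share the C arrays, so their values are given only side by side.

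Rcan2 and Cyp2b9 show different positions. Rcan2 lay at 6.22 ± 0.31 in the 5 CR livers and 6.39 ± 0.35 in the 7 CR-MF livers, against 7.60 ± 0.34 in C and 7.75 ± 0.45 in MF, so that CR-MF livers were at the level of CR livers. Cyp2b9 lay at 12.1 ± 0.49 in CR and 12.2 ± 0.52 in MF, near the C mean, and CR-MF alone was lower. Slc22a27 had means of 8.23 in CR and 8.31 in MF beside 8.16 in C and 6.78 in CR-MF, and Tm6sf2 means of 11.01 and 10.95 beside 10.98 and 10.40. Hsd3b5 lay at 7.63 ± 2.86 in CR and 4.04 ± 0.67 in MF, between which the C mean fell, while the CR-MF mean was above all.

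The CR and MF arrays entered neither mean of the CR-MF minus C difference. They did enter the filter and the shared estimate of spread, so the view they give is only partly separate. Of the 19 rises 17 (89.5%) were higher in CR than in MF livers, where 51.4% of all genes were, and of the 23 falls 20 (87.0%) were lower in CR, where 48.6% of all genes were. Between CR and MF, 8 of the 19 rises passed an adjusted p of 0.05 as higher and 8 of the 23 falls as lower, and 0 passed in the opposite direction, against 2.62% and 2.8% of all genes. Of the 241 genes higher at an unadjusted p of 0.01, 81.7% lay higher in CR than in MF, and of the 251 lower genes 80.9% lay lower. Genes move together within a mouse, so these shares are descriptions and carry no test. Hsd3b5 differed by 3.59 between CR and MF (adjusted p = 0.0214), Susd4 by 1.72 (adjusted p = 0.00848) and Rcan2 by -1.52 (adjusted p = 0.000268). Cyp2b9, by contrast, differed by -0.0941 and Slc22a27 by -0.0822 (adjusted p = 0.937 and 0.908).

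**Figure D4:**
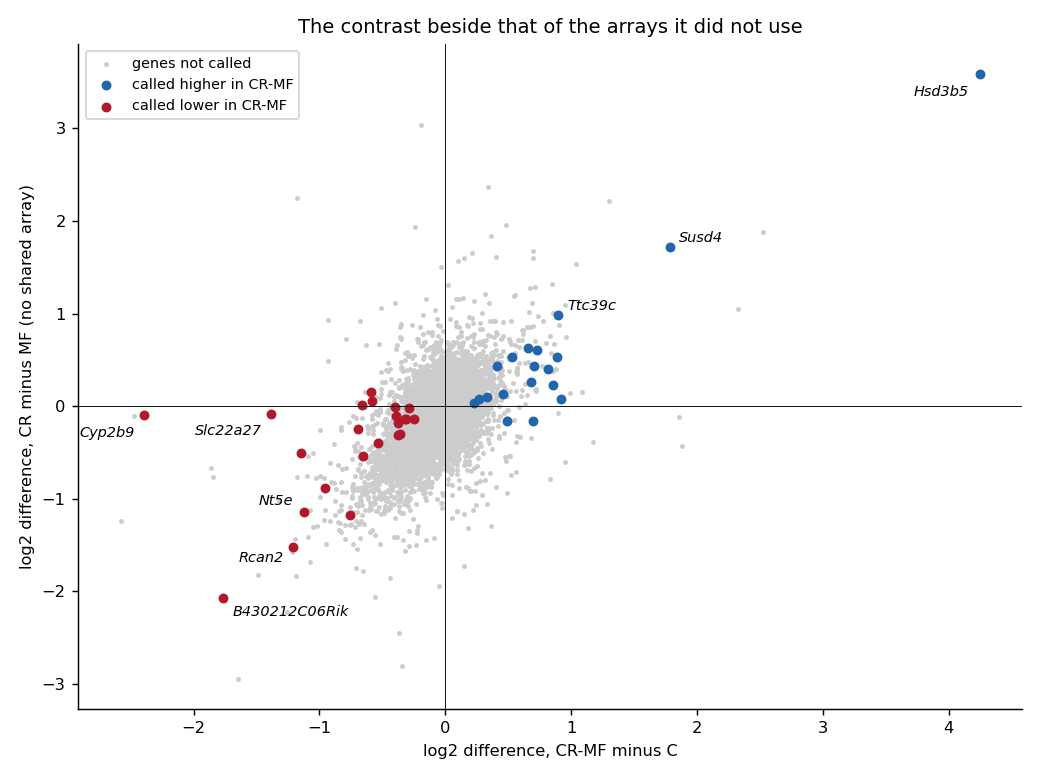
Log2 difference CR-MF minus C (x axis) and CR minus MF (y axis), which share no array, for 13993 genes (points). Of the 19 genes called higher in CR-MF (blue) 17 lie above 0 on the y axis, and of the 23 called lower (red) 20 lie below it, while Cyp2b9 and Slc22a27 lie close to 0.

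Over all genes the separation of the 2 groups depended on the arrays taken in and on the normalization. The first principal component of the 15 arrays held 33.3% of the variance. C mice scored -7.24 ± 16.7 (SD, n = 8) and CR-MF mice 8.27 ± 18.7 (n = 7), a difference of 15.5 (two-sided exact permutation p = 0.112 over 6435 splits, 0.224 adjusted over the 2 components). On the second component, with 11.7% of the variance, the difference was 7.04 (exact permutation p = 0.245, adjusted p = 0.245), and after quantile normalization it was 13.8 (adjusted exact permutation p = 0.000622). With plate as a block the first component differed by 15.6 and the second by 15.2 (adjusted exact permutation p = 0.11 and 0.00497). Components were computed anew in each setting, so that the axes can differ between settings. Within plate G150 the first differed by 25.7 and the second by 13.2 (adjusted exact permutation p = 0.0238 and 0.0216). Most CR-MF mice scored between 9.83 and 24.1 on the first component, but BC4_15 (-10.7) and BC4_11 (-24.6) scored on the side of most C mice, and the C mouse A4_1 (18.9) lay among the CR-MF mice. BC4_11 and A4_1 both lie on plate G152. The result within G150 leaves both out, so that plate and mouse cannot be told apart there. The root mean square distance of a mouse from its group mean was 0.261 ± 0.0315 in C and 0.262 ± 0.0705 in CR-MF (exact permutation p = 0.996), and the largest distances were those of BC4_11 (0.38) and BC4_15 (0.342).

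**Figure D5:**
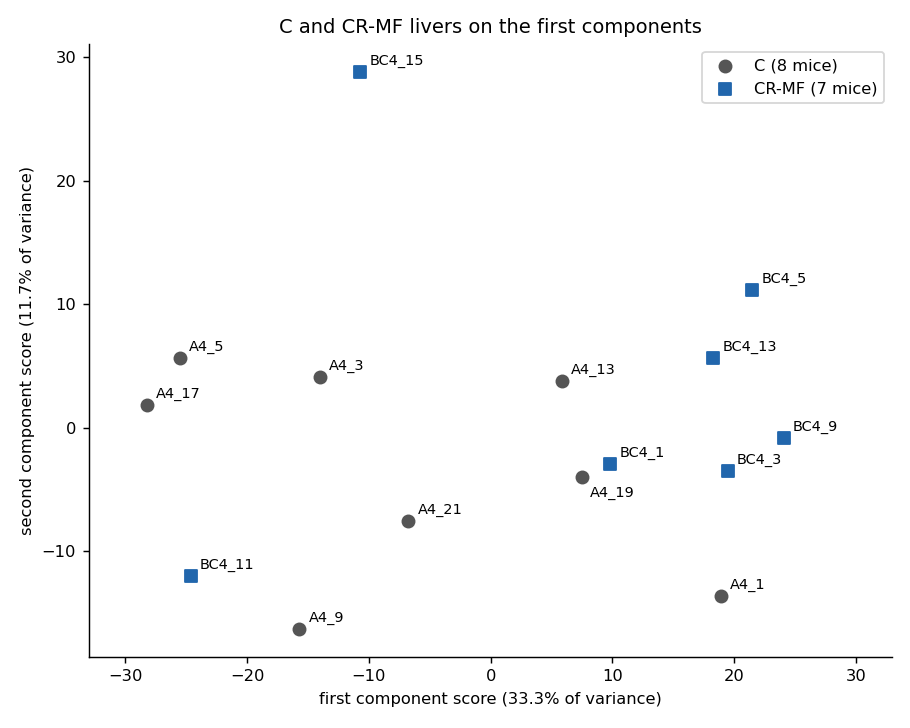
Scores of the 8 C mice (grey circles) and 7 CR-MF mice (blue squares) on the first (x axis) and second (y axis) principal component of 13993 genes. BC4_15 and BC4_11 lie apart from the other CR-MF mice, at -10.7 and -24.6 on the x axis, and the C mouse A4_1 lies at 18.9.

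Of the mice left out singly, BC4_11 raised the count of calls most. BC4_15 scored 28.8 on the second component, and without it the second component, computed anew, differed by -9.53 between the groups. BC4_11 is the CR-MF mouse of plate G152 and carried the highest mean level of the 7 CR-MF mice for markers of lipid-associated macrophages (8.17), Kupffer cells (9.45), T and NK cells (6.67), endothelial cells (8.84) and stellate cells (8.25), and for T and NK, endothelial and stellate markers it exceeded every C mouse. Without BC4_11, 111 genes were called (35 higher, 76 lower), and 40 of these were among the 42. Genes that then passed included Cd36 (-0.96, adjusted p = 0.0349), Fut8 (-0.52, adjusted p = 0.027), Trem2 (-1.40, adjusted p = 0.0368), Anxa2 (-0.96, adjusted p = 0.0427), Stab1 (-0.32, adjusted p = 0.0338), Eng (-0.32, adjusted p = 0.0456) and Abcc4 (-0.81, adjusted p = 0.0368). On the first component the difference was then 21.6 (exact permutation p adjusted over the 2 components 0.028). Without both BC4_11 and BC4_15, a choice made after seeing their scores that by itself draws the groups apart, 204 genes were called (46 higher, 158 lower), 39 of them among the 42. The male-biased median was 0.744 and the macrophage median -0.814 then. The part of cell composition in these values was not tested.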

How the data were processed

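Each liver's RNA was hybridised to its own Affymetrix Mouse Gene 1.1 ST array. What the authors deposited is RMA-normalized log2 intensity for every transcript cluster. Such values carry no read depth, and the number of arrays limits the precision. The authors' values were used as deposited. Clusters with exactly 1 gene symbol were kept, and of several clusters of a gene the one of highest mean. Clusters with several symbols or none were tested apart and not named. A gene was tested if its intensity exceeded 20 (log2 4.32) on at least 5 of 27 arrays and its interquartile range exceeded 0.1. All 4 groups were fitted in limma 3.58.1 (R 4.3.3) with an intensity trend and 23 residual degrees of freedom, and the CR-MF minus C contrast was adjusted by Benjamini-Hochberg over 13993 genes. Adjusted p-values in the text are from this fit unless another setting is named. For single scores per mouse, the groups were set against each other in exact permutation tests (two-sided).

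The contrast and the 54 gene lists (42 of pathways, 12 of cell types) were chosen with earlier results of these data known, and lists are described by counts and medians, without a test. Named genes are the 12 largest called changes in each direction outside predicted genes, the 8 of smallest p and the 3 of smallest p in each list. Smaller called changes, the predicted and RIKEN genes and other list members were named after their values were seen. On data simulated for this contrast with 13993 genes, 72% of genes changed by 0.5 and 94% of those changed by 1 on the log2 scale were recovered, with 11 false calls. The simulated noise was independent between genes and equally wide in all groups. In the arrays genes move together within a mouse and some spreads differ between groups, so these shares may not hold for them. Normalization, filter, moderation, array weights, plate, animal number, cluster choice and each mouse were varied. Plate and well codes were read from the array names. The suffix in the array name of the C mouse A4_9 is not explained in the sources used here.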

Additional observations from a re-analysis of the deposited data

Results flagged for a closer look

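Single mice stood apart from their group in 17 of 206 sets of values screened (8.25%), by the share of the group's range that separates the extreme mouse from the next. Chance gives about 1 in 20 such sets. Among the C mice, A4_9 was lowest for Cyp4a12a (5.57, next 9.15), Cyp4a12b (5.39, next 8.74) and Mup21 (5.66, next 6.87) and highest for Gpnmb (9.76, next 7.56). A4_13 was highest for Abcc4 (7.51, next 6.83) and lowest for Cyp17a1 (10.2, next 11.5). A4_5 was lowest for Cyp2c39 (7.42, next 8.10) and Babam2 (9.72, next 9.88), and A4_21 was highest for Ttc39c (11, next 10.6).

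Among the CR-MF mice, BC4_11 was highest for Trem2 (8.72, next 7.15), Anxa2 (8.26, next 7.43) and Fut8 (6.29, next 5.86). BC4_1 was highest for Obp2a (5.50, next 4.81) and Sult5a1 (7.94, next 7.22), and BC4_13 for Ccnd1 (9.73, next 9.02). BC4_15 was highest for U2af1 (7.79, next 7.61) and lowest for Proc (11.4, next 11.6). Outside the named genes, 8 of 8230 transcript clusters with no symbol were called between CR-MF and C in limma over 25171 clusters, 3 higher and 5 lower, as were 2 higher and 1 lower of 1196 clusters with several symbols.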

How the results depend on the processing

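All 100 named genes kept their direction in the 2482 results of settings that can alter the fitted difference (0 reversed). Most were named for large differences or small p in these same arrays, which by itself makes a reversal unlikely. With array weights 290 genes were called (111 higher, 179 lower) and 1140 lay at an unadjusted p of 0.01. Without BC4_11 and BC4_15, chosen after seeing the data, these counts were 204 and 989. Animal numbers shared by a C and a CR-MF mouse did not pair the mice, since their deviations correlated at 0.121, -0.0916, -0.115, -0.18 and 0.126 and no mouse matched its own number best. With the animal number as a replicate block 15 genes were called (7 higher, 8 lower), 10 of them among the 42. With each mouse left out in turn, calls ranged from 21 (without BC4_13) to 111 (without BC4_11) and genes at an unadjusted p of 0.01 from 340 to 781, the first component difference from 11.9 to 21.6, the second from -9.53 to 14.5 and the difference in distance from the group mean from -0.027 to 0.013. Since components were computed anew in each setting, their differences are not all along the same axis. The first component difference was 25.7 within plate G150 (adjusted exact permutation p = 0.0238). The second was 13.8 after quantile normalization, 15.2 with a plate block, 13.2 in G150 alone and -0.00466 with intensity over 100 (adjusted exact permutation p = 0.000622, 0.00497, 0.0216 and 1). The difference in distance turned to -0.00112 after quantile normalization, -0.000851 after median centring, -0.0177 with a plate block, -0.00913 in G150 alone and -0.000256 with the mean over clusters. The cause of these shifts was not tested. Values near the filter's intensity of 20 have little signal over background, which limits Obp2a, Hsd3b5 in C and B430212C06Rik in CR-MF.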
